A study of Mus musculus with 24 samples.

Results

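The comparison described here is that of inguinal white fat taken at ZT15 and at ZT3 from mice that had exercised, and its members are the 12 exercised libraries of the 24 in the study, 6 at each time. ZT counts the hours from lights on, so that ZT3 lies early in the rest phase of a mouse and ZT15 early in its active phase. The exercised groups are called ZT15 RUN and ZT3 RUN, and the groups given a sham hour on an artificial treadmill are called ZT15 SED and ZT3 SED, with 6 libraries each. All animals were male C57BL6 mice of 10 to 11 weeks, and exercised mice had a bout of 1 hour, in the dark under a red lamp at ZT15 and with lights on at ZT3, so lighting during the bout and time of day cannot be told apart. No transgene or drug is named, apart from the isoflurane under which all animals were killed. The labels say that animals were sampled at ZT15 or ZT3 and give no hour after the bout, so the delay between exercise and sampling is not stated here. Whether each library came from its own mouse is not spelled out in the labels, and a p-value here reflects the spread among libraries, which may be technical.

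Nearly every cell of the body, fat cells included, carries a molecular clock. The proteins Clock (or its relative Npas2) and Bmal1, encoded by Arntl, switch on the Per and Cry genes, whose products then shut off their own activators. Rev-erb alpha and beta (Nr1d1 and Nr1d2) and the Ror receptors act on a shared DNA element and form a further loop, and the related factors Dbp, Tef and Hlf carry the rhythm to output genes, opposed by Nfil3. In adipose tissue clock outputs include genes of lipid storage, fuel choice and NAD supply. Type I interferon acts through a complex of transcription factors, Stat2 and Irf9 among them, which binds a response element in antiviral genes, and fat holds resident macrophages able to respond to it.

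Promoters of 4 genes are shown because they hold elements of 2 of the gene groups described, the clock genes and the interferon-stimulated genes. Each is the RefSeq window of 300 bases, 250 before the start site and 50 after it, on build GRCm38.p6, written 5′ to 3′ in the direction of the gene. Capitals in Cry1 (chr10:85185005-85185304, minus strand) mark the E-box CACGTG, the element bound by Clock and Bmal1. In Per3 (chr4:151044616-151044915, minus strand) they mark copies of the D-box TTATGTAA, the element of Dbp, Tef, Hlf and Nfil3. In Isg15 (chr4:156200769-156201068, minus strand) and Ifit1 (chr19:34640639-34640938, plus strand) they mark the pattern of the interferon response element (GAAA, then 2 bases of any kind, then GAAA), on either strand, with overlapping matches run together.
Cry1: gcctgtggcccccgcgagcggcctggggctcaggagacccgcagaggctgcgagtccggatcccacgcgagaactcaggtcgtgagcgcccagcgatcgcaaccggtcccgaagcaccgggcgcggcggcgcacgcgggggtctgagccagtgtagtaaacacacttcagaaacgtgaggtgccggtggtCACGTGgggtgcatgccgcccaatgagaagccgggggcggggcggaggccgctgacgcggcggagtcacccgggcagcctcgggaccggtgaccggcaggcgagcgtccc
Per3: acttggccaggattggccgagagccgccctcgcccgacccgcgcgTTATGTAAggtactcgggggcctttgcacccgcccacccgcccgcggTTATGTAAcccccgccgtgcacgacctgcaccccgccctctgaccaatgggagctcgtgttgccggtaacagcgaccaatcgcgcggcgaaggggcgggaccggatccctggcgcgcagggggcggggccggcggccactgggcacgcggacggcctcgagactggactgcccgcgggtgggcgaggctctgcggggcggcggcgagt
Isg15: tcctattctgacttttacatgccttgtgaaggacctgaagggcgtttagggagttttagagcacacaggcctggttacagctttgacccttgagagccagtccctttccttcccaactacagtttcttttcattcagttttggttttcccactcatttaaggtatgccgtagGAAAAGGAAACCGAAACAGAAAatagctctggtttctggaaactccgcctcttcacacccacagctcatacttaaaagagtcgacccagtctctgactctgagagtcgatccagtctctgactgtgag
Ifit1: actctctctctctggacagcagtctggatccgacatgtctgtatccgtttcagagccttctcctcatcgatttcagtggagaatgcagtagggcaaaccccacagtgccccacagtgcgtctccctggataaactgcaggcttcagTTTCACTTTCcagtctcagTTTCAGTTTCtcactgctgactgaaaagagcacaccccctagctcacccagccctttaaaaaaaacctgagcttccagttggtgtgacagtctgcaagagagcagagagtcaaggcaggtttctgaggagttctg
The motifs and these promoters were chosen after the genes that differed were known. Their shares over all promoters follow the gene results.

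Expression was given as normalized signal, the reads of a gene scaled to a common library size, and every change is a difference of log2(signal + 1) between group means, ZT15 minus ZT3, with its standard error. The test was limma in a model of all 24 libraries, adjusted by Benjamini-Hochberg over 16233 genes with a threshold of 0.05, and a gene past it is said to have risen or fallen. Reads in the listed genes ranged from 18.5 to 34.7 M (mega) per library. Adipocyte markers were high throughout: Adipoq, which encodes adiponectin, read 1928, 2374 and 3105 in ZT15 RUN, against 1101, 2346 and 2977 in ZT3 RUN (lowest, median and highest of 6 libraries, as in all such triplets below). Among the exercised libraries 1 stood apart: ZT3_RUN_4 had 99.2 units of the B cell gene Cd79a, against 0.24 to 0.963 in the ZT15 RUN libraries and 0.334 to 0.786 in the other ZT3 RUN libraries. Its summed lymphocyte markers reached 2922, against 70.7 to 189 in ZT15 RUN and 85.2 to 193 in the rest of ZT3 RUN, and its summed adipocyte markers were the lowest of the 12 at 15470. Of the sham libraries, ZT15_SED_3 and ZT15_SED_5 were also high in Cd79a, above a limit of 5 units. Libraries high in Cd79a therefore lay at ZT3 in exercised mice and at ZT15 in sham mice. Skeletal muscle markers summed to between 454 and 97010 in ZT15 RUN and between 1013 and 31350 in ZT3 RUN, and 3 exercised libraries exceeded 30000: ZT15_RUN_6 (97010), ZT15_RUN_1 (36550) and ZT3_RUN_5 (31350). In bulk tissue, fewer cells of a type and less RNA per cell cannot be told apart.

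In exercised mice 680 genes differed between ZT15 and ZT3, 4.19% of those tested. At ZT15 415 were higher (2.56%) and 265 were lower (1.63%), and 41 of the higher and 33 of the lower genes changed by 2-fold or more. In 244 genes (1.5%) every ZT15 library lay above every ZT3 library, and in 124 (0.764%) every one lay below. The 2 largest changes among the named genes were in the clock genes Nr1d1 and Per2. The number of calls rested on the estimate of spread: fitted on the 12 exercised libraries alone, 109 genes passed, 89 higher and 20 lower, of which 108 were among the 680. In that fit 13 of the 60 named genes that had passed still did, namely Nr1d1, Rtp4, Npas2, Tef, Nampt, Per3, Noct, Fmo2, Trp53inp2, Cry1, Hlf, Fzd5 and Per2. Without ZT3_RUN_4 the model of all remaining libraries gave 440 calls, and the exercised libraries alone gave 221. Of the 60 named calls 20 were lost without it, namely Usp2, Nfil3, Tead1, Zbtb16, Acacb, Nrg4, Hk2, Fdft1, Lrrc32, Pde3b, Cry2, Acot2, Rora, Fbxw11, Dkk3, Sdf2l1, Irf7, Ifi203, Trim30a and Trim30d. Without the 6 of 24 libraries whose muscle markers exceeded 30000, a limit chosen after seeing the data, 196 genes passed. Of the 60 named calls 22 then stayed, namely Nr1d1, Per2, Per3, Cry1, Hlf, Nampt, Usp2, Pdk4, Noct, Trp53inp2, Fzd5, Fmo2, Wee1, Slc2a3, Lpin1, Tead1, Zbtb16, Timp3, Sox17, Tiparp, Rtp4 and Ifi44.

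Several repressors of the clock rose at ZT15. Of 8 repressor genes measured, 4 rose (Per2, Per3, Cry1 and Cry2) and none fell, against 2.56% of all genes higher and 1.63% lower. The median change was 0.63, against -0.01 over all genes. Per2 (ENSMUSG00000055866), a period protein that holds the clock's activators in check, read 119, 129.6 and 151 in ZT15 RUN, against 21.9, 26.0 and 47.6 in ZT3 RUN. No ZT15 library came near the ZT3 range. The difference was 2.12 ± 0.26, adjusted p = 6.07e-05. Cry1 (ENSMUSG00000020038), a cryptochrome and the strongest repressor of Clock and Bmal1, read 26.3, 31.7 and 35.1 in ZT15 RUN, against 7.67, 8.62 and 12.8 in ZT3 RUN. These groups did not overlap either, with a difference of 1.6 ± 0.12, adjusted p = 5.62e-08. Per3 read 87.4, 113 and 142 in ZT15 RUN, against 35.6, 52.9 and 80.4 in ZT3 RUN, with a difference of 1.12 ± 0.22, adjusted p = 0.00513. Its 6 ZT15 libraries all lay above the 6 ZT3 libraries. Cry2, the other cryptochrome, read 59.7, 68.6 and 80.9 in ZT15 RUN, against 31.1, 49.1 and 59.5 in ZT3 RUN, and the groups only just failed to meet. Its difference was 0.59 ± 0.16, adjusted p = 0.0319. Per1 did not pass, with a difference of 0.64 ± 0.29, adjusted p = 0.204, nor did Ciart (0.37 ± 0.22, adjusted p = 0.347) or the repressors Bhlhe40 (0.13 ± 0.26, adjusted p = 0.808) and Bhlhe41 (0.62 ± 0.25, adjusted p = 0.159).

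That further loop moved in both directions. Nr1d1 (ENSMUSG00000020889), which encodes Rev-erb alpha, a heme-binding repressor of Arntl, had the largest change of any named gene. It read 5.53, 7.76 and 9.49 in ZT15 RUN, against 36.6, 62.6 and 87.2 in ZT3 RUN. Every ZT15 library lay below every ZT3 library, and the difference was -2.86 ± 0.19, adjusted p = 3.14e-09. Its relative Nr1d2 read 76.7, 106 and 121 in ZT15 RUN, against 75.7, 115 and 139.7 in ZT3 RUN, groups that overlapped, with a difference of -0.08 ± 0.19, adjusted p = 0.847. Npas2, a partner of Bmal1, was low in all libraries and fell: 1.61, 1.97 and 3.99 in ZT15 RUN, against 3.1, 6.17 and 6.6 in ZT3 RUN, a difference of -0.96 ± 0.23, adjusted p = 0.0194. A single ZT15 library with 3.99 lay above the lowest ZT3 library. Rora, a nuclear receptor that activates where Rev-erb represses, rose by 0.54 ± 0.15, adjusted p = 0.0426 and Nfil3, the repressor at D-boxes, by 1.32 ± 0.34, adjusted p = 0.0283, and neither was called in the exercised libraries alone. Of the activators, Arntl and Clock did not differ by the test. Arntl averaged 21.5 ± 5.64 in ZT15 RUN and 21.0 ± 3.31 in ZT3 RUN (SD, n = 6 each), and Clock averaged 199 ± 13.0 in ZT15 RUN and 196 ± 38.2 in ZT3 RUN (SD, n = 6 each). Of 7 genes of this loop, 2 were higher and 2 lower, against 2.56% and 1.63% of all genes, and the median change was 0.01.

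Of the 3 output factors, Hlf and Tef rose and Dbp did not pass. Hlf (ENSMUSG00000003949) read 24.1, 32.5 and 36.5 in ZT15 RUN, against 6.19, 8.08 and 11.9 in ZT3 RUN, with no overlap and a difference of 1.79 ± 0.24, adjusted p = 0.000188. Tef read 191, 203 and 222 in ZT15 RUN, against 88.5, 126 and 157 in ZT3 RUN, also without overlap, and its difference was 0.77 ± 0.17, adjusted p = 0.00988. Dbp read 8.48, 14.8 and 15.7 in ZT15 RUN, against 10.3, 15.8 and 22.3 in ZT3 RUN, with a difference of -0.18 ± 0.22, adjusted p = 0.669, and ZT15_RUN_3 was far below the other ZT15 libraries at 8.48. Among 19 modifiers of clock proteins, 4 rose and none fell, beside the 2.56% and 1.63% over all genes. Nampt, the rate-limiting enzyme of NAD salvage, read 366, 457 and 515 in ZT15 RUN, against 157, 217 and 268 in ZT3 RUN. The ranges were far apart, and the difference was 1.06 ± 0.12, adjusted p = 2.05e-05. Usp2, a deubiquitinase, rose by 1.56 ± 0.38, adjusted p = 0.0205, and the casein kinase gene Csnk1e rose by 0.44 ± 0.09, adjusted p = 0.0102. Fbxw11, a subunit of a ubiquitin ligase for Per proteins, rose by only 0.17 ± 0.05, adjusted p = 0.049.

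**Figure D1:**
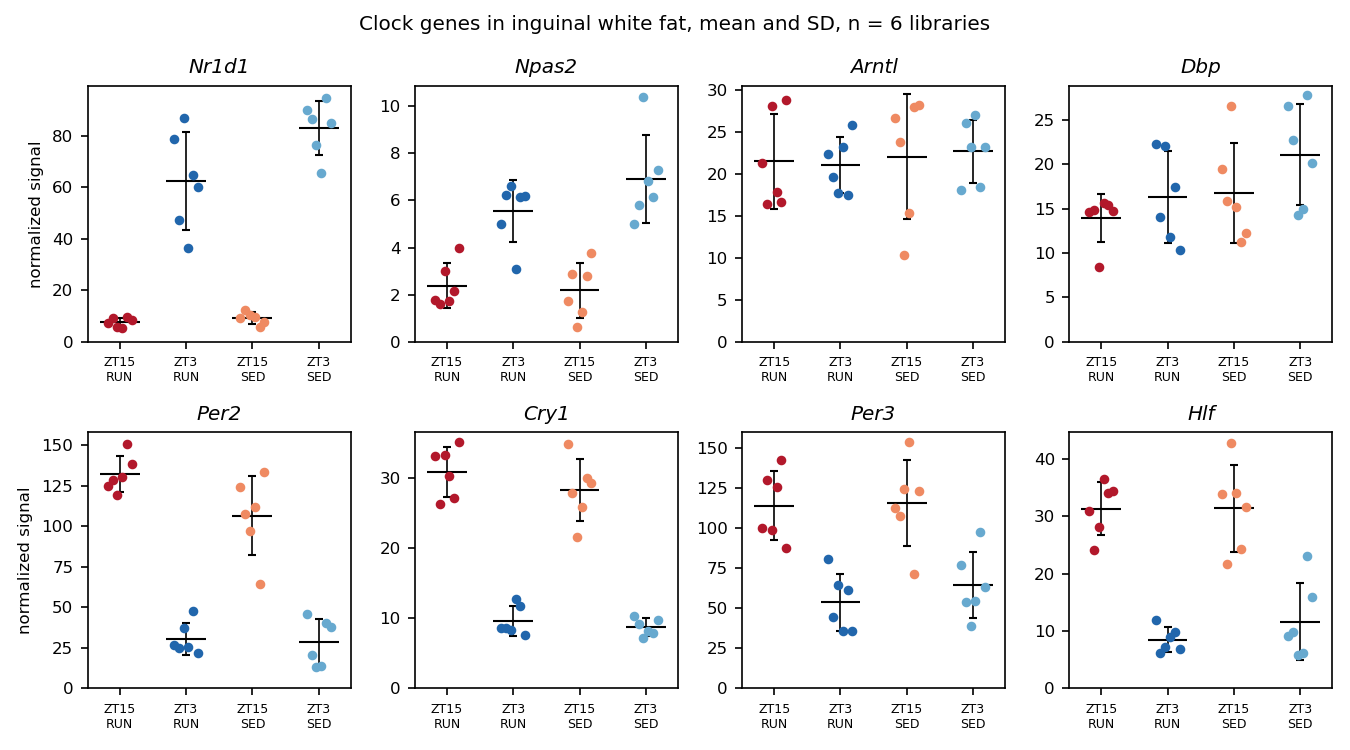
Normalized signal of 8 clock genes in each library, one point per library, with the mean and SD of the 6 libraries of a group as bars. Nr1d1 lies between 5.53 and 9.49 in ZT15 RUN, against 36.6 to 87.2 in ZT3 RUN, while Per2, Cry1, Per3 and Hlf lie the other way without overlap and Arntl and Dbp overlap.

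In sham mice, which are other libraries, several of the same clock genes differed between the times. Nr1d1 read 5.92, 9.56 and 12.3 in ZT15 SED, against 65.7, 85.9 and 94.99 in ZT3 SED, and its difference in sham mice was -3.05 ± 0.19, adjusted p = 7.97e-10. Per2 differed by 1.99 ± 0.26, adjusted p = 0.00024 and Cry1 by 1.58 ± 0.12, adjusted p = 7.17e-08 in sham mice. The difference between the exercised and the sham change was 0.20 ± 0.26, unadjusted p = 0.464, adjusted p = 0.804 for Nr1d1. For Cry1 it was 0.02 ± 0.18, unadjusted p = 0.913, adjusted p = 0.973. Cry2 and Rora had small sham changes of 0.11 ± 0.16, adjusted p = 0.839 and 0.03 ± 0.15, adjusted p = 0.955. Their differences between the treatments, 0.49 ± 0.22, unadjusted p = 0.0373, adjusted p = 0.583 for Cry2 and 0.51 ± 0.21, unadjusted p = 0.0261, adjusted p = 0.583 for Rora, did not pass.

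Interferon-stimulated genes were lower at ZT15. All 19 members of the list lay below 0, 14 fell, none rose, and the median change was -0.99. The share of all genes that fell was 1.63%. Ifi44, an antiviral protein of the cytoplasm, read 4.74, 5.18 and 7.33 in ZT15 RUN, against 7.37, 14.0 and 27.0 in ZT3 RUN, with a difference of -1.12 ± 0.20, adjusted p = 0.00303. All ZT15 libraries were below the lowest ZT3 library, by a narrow margin. Rsad2, which encodes viperin, read 13.9, 15.9 and 19.2 in ZT15 RUN, against 19.8, 29.1 and 51.2 in ZT3 RUN, and its groups did not overlap either. These were the only 2 members without overlap, against 0.764% of all genes lower without overlap. Isg15, a ubiquitin-like modifier, read 2.02, 3.87 and 4.98 in ZT15 RUN, against 4.34, 9.4 and 15.9 in ZT3 RUN, with a difference of -1.08 ± 0.21, adjusted p = 0.00513. Usp18, the protease that removes it, read 6.62, 8.63 and 17.4 in ZT15 RUN, against 13.7, 21.6 and 35.3 in ZT3 RUN, with a difference of -1.07 ± 0.21, adjusted p = 0.00479. In both genes the highest ZT15 libraries reached into the ZT3 range. Oas1a, a sensor of double-stranded RNA, differed by -1.10 ± 0.22, adjusted p = 0.00579, and Oasl2, of the same family, by -1.28 ± 0.28, adjusted p = 0.0102. Irf7, the factor that amplifies the response, read 27.1, 31.6 and 44.1 in ZT15 RUN, against 35.4, 72.1 and 148 in ZT3 RUN, with a difference of -1.01 ± 0.29, adjusted p = 0.0483, and was lost in 25 of 39 other settings. Mx1, a GTPase against influenza viruses, had the largest change of the list, -1.59 ± 0.43, adjusted p = 0.0385, with 1 ZT15 library at 11.7 and ZT3_RUN_4 at 42.0.

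The interferon calls depended on the libraries that set the spread. With the exercised libraries alone 0 of 19 members passed by limma. That fit leaves the exercised group means as they are, so the signs and the median of the list could not change. Without the libraries high in Cd79a 11 fell and 1 lay above 0, with a median of -0.88. Summed signal of the list ran from 362 to 598 in ZT15 RUN and from 480.2 to 1090 in ZT3 RUN, where ZT3_RUN_4 was highest. Macrophage markers lay below 0 in 11 of 12 genes, and 1, Fcgr1, fell (-1.21 ± 0.30, adjusted p = 0.0242), where 1.63% of all genes fell. They summed to 763 to 2631 in ZT15 RUN and 1490 to 2801 in ZT3 RUN, so the ranges overlapped. Lymphocyte markers lay below 0 in 18 of 18 genes with none called, and in 9 of 18 without the libraries high in Cd79a. With lymphocyte and muscle scores in the model 13 of the 19 interferon genes fell. The part of macrophages in the interferon result was not tested. Without the libraries high in muscle markers, which takes out ZT3_RUN_5 with its interferon sum of 993, 1 of 19 members passed, Ifi44, and all 19 lay below 0 with a median of -0.68.

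The interferon change was also computed within runs of the samples' title numbers, each with 2 libraries of each group. In title numbers 1 to 8, which hold ZT3_RUN_4 and ZT3_RUN_5, the median of the list was -1.49 and all 19 members lay below 0. In numbers 9 to 16 it was -0.56 with 18 below 0, and in numbers 17 to 24 it was -0.54 with 14 below 0. Oasl2 differed by -2.26 in the first run, against -0.75 and -0.84 in the others, and Irf7 by -2.01, against -0.54 and -0.48. Ifi44 differed by -1.47, -0.85 and -1.04. For comparison, Per2 differed by 2.03, 2.34 and 2.00 in the same runs. The difference between runs was not tested, and the labels do not say what a run of numbers stands for.

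The 12 largest falls by the rule for naming genes included 8 genes outside the interferon list and the clock lists. Rtp4, a receptor chaperone, read 7.85, 12.7 and 14.9 in ZT15 RUN, against 18.3, 31.7 and 43.7 in ZT3 RUN, with no overlap and a difference of -1.24 ± 0.19, adjusted p = 0.000516. Siglec1, a macrophage lectin, differed by -1.14 ± 0.26, adjusted p = 0.0143, Ddx60, an RNA helicase, by -1.04 ± 0.21, adjusted p = 0.00668, and Slfn8 by -1.25 ± 0.31, adjusted p = 0.0247. Trim30a, Trim30d, Ifi203 and Themis2 fell by 1.03, 1.11, 1.02 and 1.05 on the log2 scale. A promoter window of Ddx60, Slfn8, Trim30a, Trim30d and Ifi203 held the interferon response element, and that of Themis2 did not. All 8 genes fell most in title numbers 1 to 8, as the interferon list did. Slfn8 differed by -2.49, -0.69 and -0.56 in the 3 runs and Rtp4 by -1.95, -0.96 and -0.80. Whether these falls are separate from those of the interferon list was not tested.

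**Figure D2:**
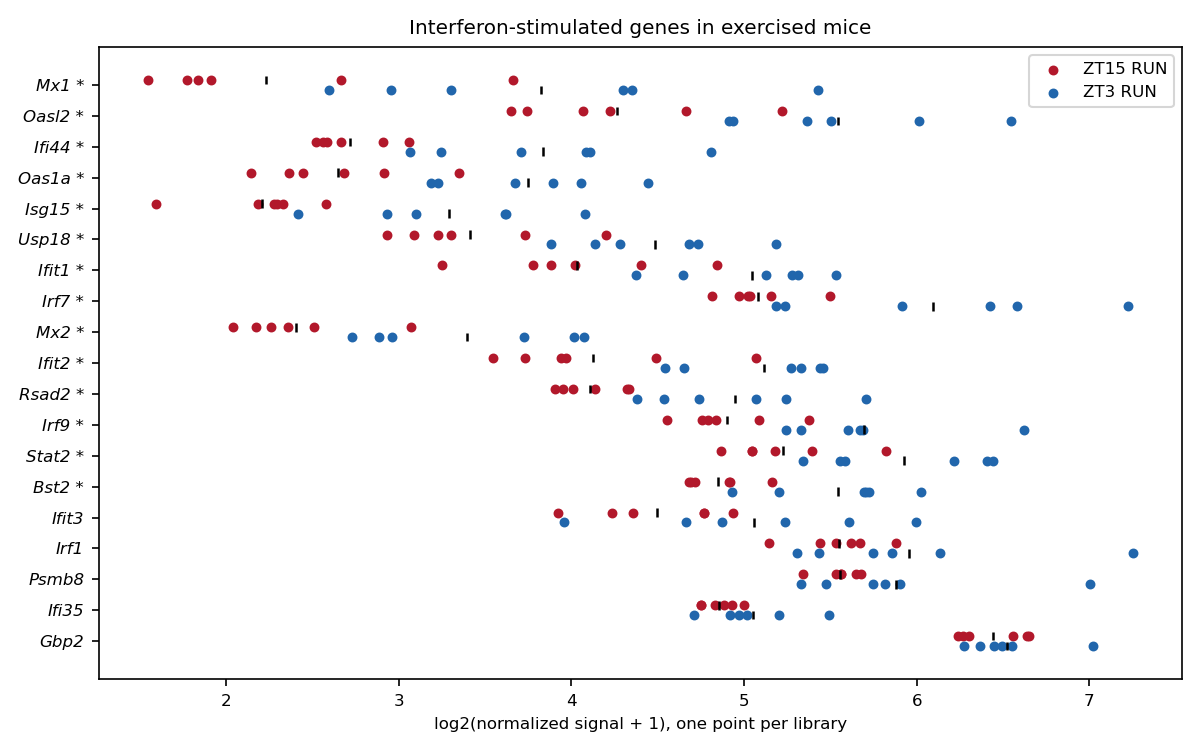
log2(signal + 1) of the 19 interferon-stimulated genes in each of the 12 exercised libraries, with a short bar at each group mean and an asterisk at the 14 genes past the threshold. The ZT15 RUN mean lies left of the ZT3 RUN mean in each gene, and the points of Ifi44 and Rsad2 alone do not overlap.

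**Figure D3:**
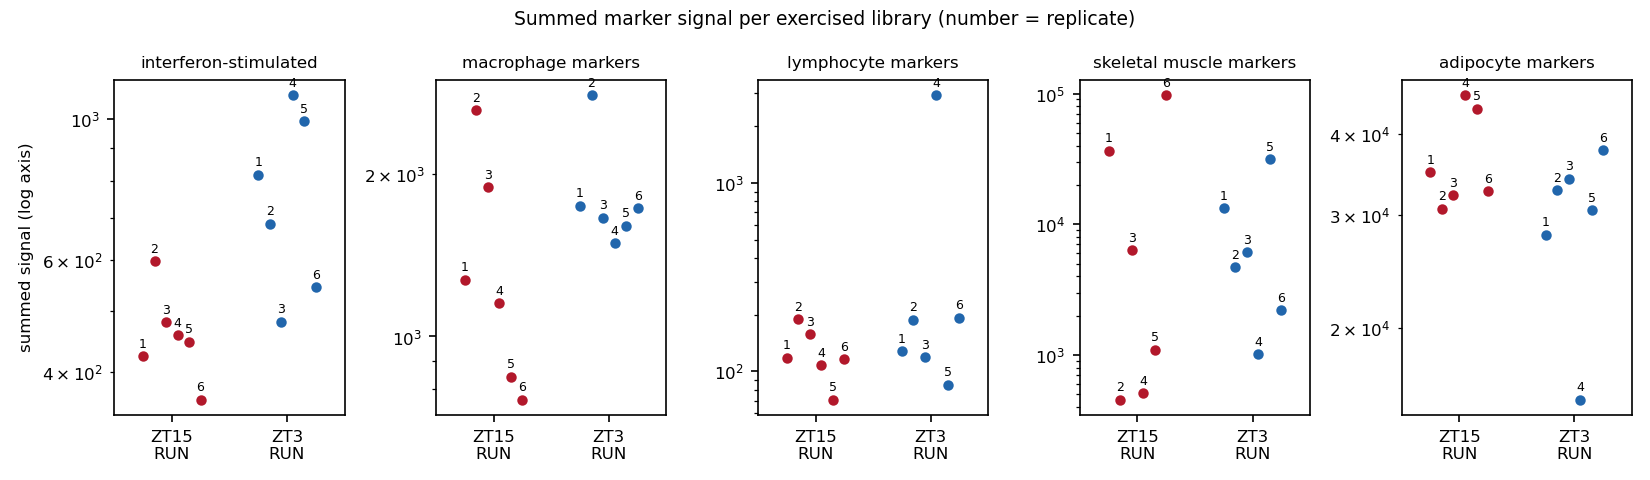
Summed signal of the interferon list and of 4 marker lists in each exercised library on log axes, each point labelled with its replicate number. ZT3_RUN_4 has the highest interferon sum (1090) and lymphocyte sum (2922) and the lowest adipocyte sum (15470), and muscle sums span 454 to 97010.

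In sham mice the same list had a median of -0.37, and 1 of 19 members fell, Ifi44 (-0.86 ± 0.20, adjusted p = 0.0337). Of all genes 0.561% fell there. The difference between the exercised and the sham change had a median of -0.38 with 0 of 19 members called. At an unadjusted p, Usp18 was the lowest of the members named here, -0.68 ± 0.29, unadjusted p = 0.0288, adjusted p = 0.583.

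Pdk4, Noct and Trp53inp2 were among the 12 largest rises by the same rule. Pdk4 (ENSMUSG00000019577), a kinase that blocks entry of pyruvate into the citric acid cycle, read 441, 991 and 2298 in ZT15 RUN, against 209, 264 and 716 in ZT3 RUN. Only ZT3_RUN_5, at 716, reached into the ZT15 range. The difference was 1.68 ± 0.34, adjusted p = 0.00606. Noct, a rhythmic phosphatase of NADP, read 94.9, 158 and 233 in ZT15 RUN, against 43.2, 51.5 and 112 in ZT3 RUN, with a difference of 1.41 ± 0.26, adjusted p = 0.00364, and again ZT3_RUN_5 was the high ZT3 library at 112. Trp53inp2, a protein of autophagosome formation, read 463, 503 and 587 in ZT15 RUN, against 117, 184 and 232 in ZT3 RUN. Its ranges were far apart, and its difference was 1.54 ± 0.17, adjusted p = 1.54e-05. Foxo1, the transcription factor restrained by insulin, rose by 0.66 ± 0.17, adjusted p = 0.0305. Trp53inp2 and Foxo1 were the 2 called members among 23 autophagy and Foxo genes, where 2.56% of all genes rose, and Foxo1 was not called without the libraries high in muscle markers.

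Lists of fuel metabolism held 1 or 2 calls each, where 2.56% of all genes rose, and nothing about a list is read from so few. Glucose genes gave 2 calls of 26, both higher. Slc2a3, a glucose transporter, read 18.2, 29.9 and 50.6 in ZT15 RUN, against 7.41, 12.1 and 24.8 in ZT3 RUN, with a difference of 1.22 ± 0.24, adjusted p = 0.00513. Hk2, the insulin-regulated hexokinase, read 187, 302 and 448 in ZT15 RUN, against 111, 185 and 225 in ZT3 RUN, with a difference of 0.81 ± 0.22, adjusted p = 0.0356. In both, the lowest ZT15 libraries overlapped the ZT3 range. Fatty acid oxidation gave 2 calls of 24, Slc25a20, the carnitine carrier (0.78 ± 0.18, adjusted p = 0.0185), and Acot2, a mitochondrial thioesterase (0.57 ± 0.15, adjusted p = 0.0313), with 23 members above 0 and a median of 0.43. Hk2, Slc25a20 and Acot2 were each highest in ZT15_RUN_6 and next in ZT15_RUN_1, the 2 libraries richest in muscle markers, whereas Slc2a3 was lowest of ZT15 RUN in ZT15_RUN_6. Summed oxidation genes reached 7631 in ZT15_RUN_6 and 6970 in ZT15_RUN_1, with 3541 to 5176 in the other ZT15 RUN libraries, against 2554 to 4872 in ZT3 RUN. Summed glucose genes reached 12670 and 9487 in these 2 libraries, with 3854 to 5138 in the others, against 3568 to 7786 in ZT3 RUN, where the median (6042) was above that of ZT15 RUN (5115). Without the libraries high in muscle markers 0 of 24 oxidation genes passed by limma and their median was 0.15, and 1 of 26 glucose genes passed, Slc2a3, with 13 members above 0. With muscle and lymphocyte scores in the model, instead, 2 oxidation and 3 glucose genes passed. Lpin1, a phosphatase of triglyceride synthesis and the single call of its 16 genes, read 894, 1141 and 1479 in ZT15 RUN, against 369, 671 and 1016 in ZT3 RUN, with a difference of 0.82 ± 0.20, adjusted p = 0.0217. Acacb, the mitochondrial acetyl-CoA carboxylase, was the call among 16 lipogenic genes (0.91 ± 0.26, adjusted p = 0.0495). Of 21 lipolysis genes Pde3b rose (0.64 ± 0.16, adjusted p = 0.0299), the phosphodiesterase through which insulin lowers cAMP in fat cells, while its relative Pde3a, of the list of 18 cAMP genes, fell (-0.59 ± 0.14, adjusted p = 0.0196). Among 12 adipocyte hormones Nampt and Nrg4, a ligand released by thermogenic fat, rose, Nrg4 by 0.82 ± 0.21, adjusted p = 0.0302. With the exercised libraries alone, no member of the oxidation, glucose, triglyceride, lipogenic or lipolysis lists passed by limma.

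**Figure D4:**
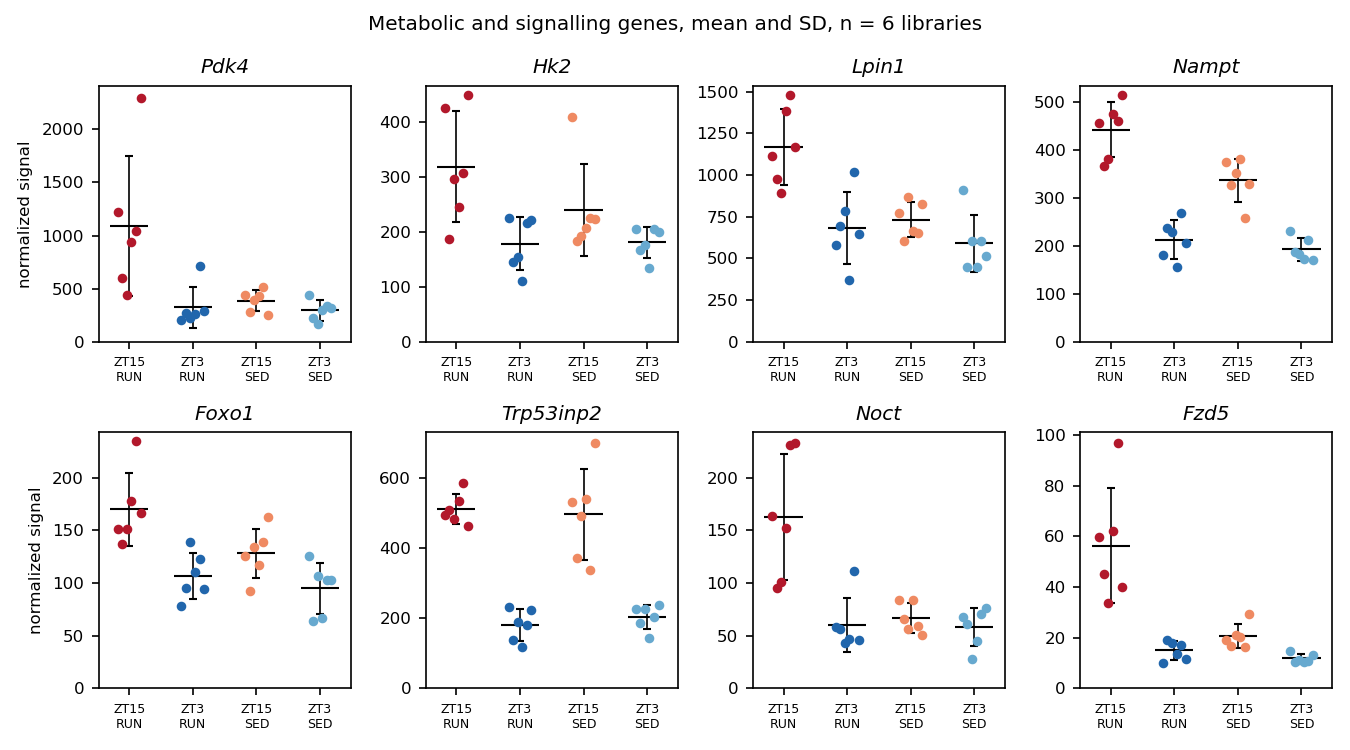
Normalized signal of 8 metabolic and signalling genes in each library, with mean and SD of the 6 libraries of a group. Nampt, Trp53inp2 and Fzd5 do not overlap between ZT15 RUN and ZT3 RUN, and Pdk4 spans 441 to 2298 in ZT15 RUN, against 209 to 716 in ZT3 RUN.

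Further groups held a few calls each, where 2.56% of all genes rose and 1.63% fell. Of 21 glucocorticoid genes, Pdk4, Tsc22d3 and Zbtb16 rose. Tsc22d3, a leucine zipper protein induced by the hormone, read 509.6, 544 and 643 in ZT15 RUN, against 127, 342 and 395 in ZT3 RUN, without overlap, and its difference was 0.92 ± 0.25, adjusted p = 0.0355. Zbtb16 rose by 0.94 ± 0.24, adjusted p = 0.0304. Fzd5 (ENSMUSG00000045005), a Wnt receptor, read 33.6, 52.6 and 96.8 in ZT15 RUN, against 10.2, 15.4 and 19.2 in ZT3 RUN. Its lowest ZT15 library was above the highest ZT3 library by a wide margin, with a difference of 1.79 ± 0.20, adjusted p = 1.54e-05. Dkk3, a secreted protein of the Dickkopf family, fell in a range of low signal (-0.65 ± 0.18, adjusted p = 0.0393). Timp3, an inhibitor of matrix proteases, rose by 0.89 ± 0.17, adjusted p = 0.00513, and the collagen gene Col5a3 fell (-0.72 ± 0.20, adjusted p = 0.0411). Wee1, a clock-controlled kinase that delays mitosis, rose by 1.26 ± 0.25, adjusted p = 0.00513, and Fmo2, a flavin monooxygenase, by 1.47 ± 0.20, adjusted p = 0.000173. Tead1, the DNA-binding partner of Yap, rose by 1.21 ± 0.29, adjusted p = 0.0213. Single calls among their lists were Hspa8, a constitutive chaperone (0.45 ± 0.11, adjusted p = 0.0241), Fdft1, the squalene synthase (0.72 ± 0.20, adjusted p = 0.045), Lrrc32, an anchor of latent TGF-beta (0.65 ± 0.18, adjusted p = 0.045), and the endothelial factor Sox17 (0.92 ± 0.21, adjusted p = 0.014). All 19 chaperone genes lay above 0 (median 0.38), and 18 did in sham mice (median 0.29). In exercised mice 12 of the 19 had an unadjusted p under 0.05 by limma, against 3375 of 16233 genes. Among stress response genes Asns, the asparagine synthetase, rose (0.84 ± 0.18, adjusted p = 0.0106) and Sdf2l1, of the endoplasmic reticulum, fell (-0.66 ± 0.19, adjusted p = 0.049). The weakest of these calls were lost in many of 39 other settings, Fbxw11 in 29, Acacb and Sdf2l1 in 27, Lrrc32 in 22, Fdft1 in 20 and Rora in 18.

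Other lists leaned one way with no member called by limma. All 26 respiratory chain genes lay above 0 (median 0.29), and 25 did after quantile normalization. Their sum was highest in ZT15_RUN_6 (12770) and ZT15_RUN_1 (11750), with 5464 to 7598 in the other ZT15 RUN libraries, against 4600 to 9233 in ZT3 RUN. Without the libraries high in muscle markers 14 of the 26 lay above 0, with a median of 0.01, while with muscle and lymphocyte scores in the model all 26 did, with a median of 0.26. All 24 ribosomal protein genes lay below 0 (median -0.23), and Rplp0 was highest in ZT3_RUN_4 at 532. The median was -0.57 in title numbers 1 to 8, which hold ZT3_RUN_4, and -0.19 in numbers 17 to 24. In numbers 9 to 16 it was 0.004, with 12 of the 24 below 0. All 24 lay above 0 in sham mice (median 0.14), where ZT15_SED_3 and ZT15_SED_5 were high in Cd79a. The part of lymphocyte content in these signs was not tested. Of 25 immediate early genes 21 lay above 0 (median 0.32). In title numbers 17 to 24, however, 17 of the 25 lay below 0 (median -0.115), against 6 in numbers 1 to 8 and 0 in numbers 9 to 16. Sham mice had 24 of the 25 below 0 (median -0.37). For the difference between treatments 15 members had an unadjusted p under 0.05 by limma, against 1273 of 16233 genes. None of them was called. Fosl2 had a difference of 0.88 ± 0.27, adjusted p = 0.0628. Thermogenic genes lay above 0 in 14 of 15 (median 0.57), yet Cidea read 56.4, 103 and 460.2 in ZT15 RUN, against 17.4, 88.3 and 126 in ZT3 RUN, groups that overlapped widely. The thermogenic sum was 2129 in ZT15_RUN_6 and 1888 in ZT15_RUN_1, with 301 to 460 in the other ZT15 RUN libraries, against 202 to 515 in ZT3 RUN. Without the libraries high in muscle markers 10 of 15 lay above 0, with a median of 0.23, while with muscle and lymphocyte scores in the model 14 did, with a median of 0.545. By edgeR 1 of the 15 was called and by DESeq2 3 were. Vegfa, the main growth factor of blood vessels, differed by 0.91 ± 0.30, adjusted p = 0.0904, which did not pass.

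Set beside the same time comparison in sham mice, 191 genes were called there (1.18%), 100 higher (0.616%) and 91 lower (0.561%). No library is shared between the comparisons, although both use one estimate of spread. Genes called in both numbered 113, all with the same sign, which is 16.6% of the exercised calls and 59.2% of the sham calls. They included Trp53inp2 (sham change 1.25), Nampt (0.80), Slc2a3 (1.30), Fmo2 (1.27), Wee1 (1.19) and Tsc22d3 (1.12). Pdk4 (sham change 0.41), Noct (0.25) and Fzd5 (0.74) were not called in sham mice. The difference between treatments did not pass for any of these genes by limma. Of the exercised calls, 394 of 415 higher and 242 of 265 lower genes had the same sign in sham mice, against 57.0% of all genes with a shared sign. The higher calls had a median change of 0.58 in exercised and 0.30 in sham mice. The lower calls had medians of -0.53 and -0.25. Since these genes were chosen for their change in exercised mice, the smaller sham medians are given as a description. The test of the difference itself called 0 genes (0%) by limma and 0 by edgeR, with 1273 at an unadjusted p under 0.05 by limma, whereas DESeq2 called 239. Of these 28 were higher and 211 lower. The lymphocyte list had a median of -0.88 in exercised mice, 1.46 in sham mice and -2.42 for the difference. Without the libraries high in Cd79a limma called 0 genes, with 580 at an unadjusted p under 0.05. The part of lymphocyte content in the DESeq2 calls was not tested. Among genes of above-median signal without a numbered or clone name, those of smallest p by limma were Lrrc32 (1.15 ± 0.26, unadjusted p = 0.000174, adjusted p = 0.583), Palld, an actin-binding protein (0.83 ± 0.21, unadjusted p = 0.000676, adjusted p = 0.583), Atp2a2, a calcium pump (0.38 ± 0.10, unadjusted p = 0.000718, adjusted p = 0.583), Tiparp, a target of the aryl hydrocarbon receptor (0.82 ± 0.22, unadjusted p = 0.00109, adjusted p = 0.583), and Fzd5 (1.05 ± 0.28, unadjusted p = 0.00118, adjusted p = 0.583). Tiparp rose in exercised mice (0.84 ± 0.15, adjusted p = 0.00304) and had a sham change of 0.03 ± 0.15, adjusted p = 0.966. Atp2a2 likewise rose (0.33 ± 0.07, adjusted p = 0.00714), with a sham change of -0.05 ± 0.07, adjusted p = 0.845.

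**Figure D5:**
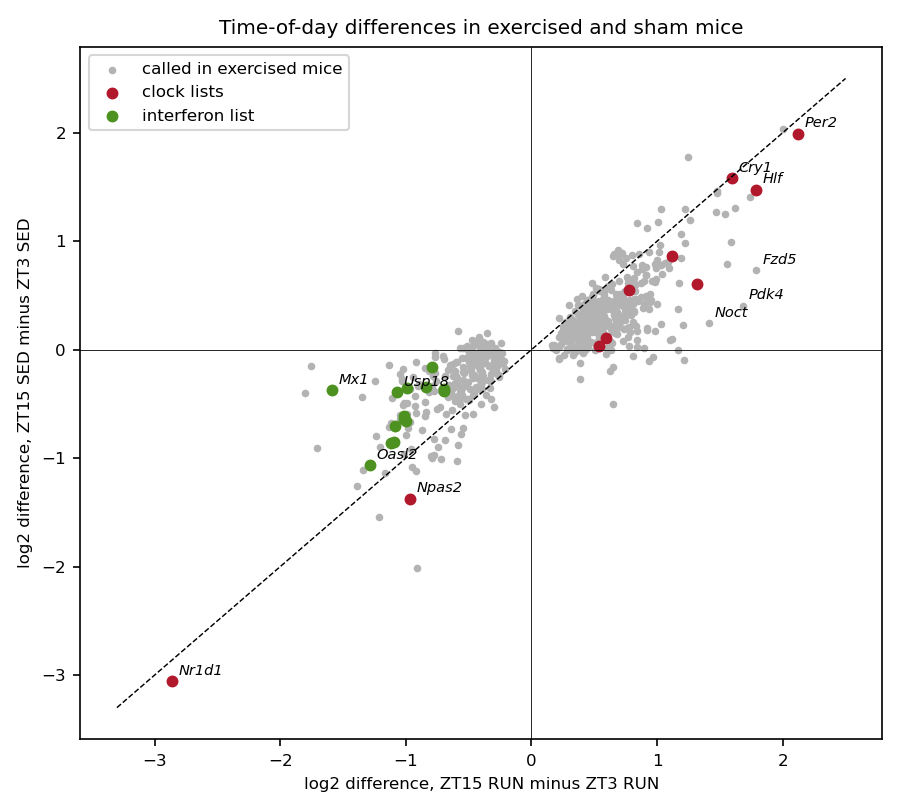
Each of the 680 called genes by its log2 difference in exercised mice (horizontal axis) and in sham mice (vertical axis), with clock genes and interferon genes in colour and a dashed line of equal change. Nr1d1, Per2 and Cry1 lie near the line, and Pdk4, Noct and Fzd5 lie below it.

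Libraries did not all carry the difference equally. Counting for each library how many of the 680 calls lay on its own time's side of the midpoint between the exercised means, 4 ZT15 RUN libraries reached 95.6% to 97.8%, while ZT15_RUN_3 had 81.3% and ZT15_RUN_2 had 71.6%. ZT3 RUN libraries had 81.2% to 94.4%. High shares in exercised libraries follow from the choice, since the 680 genes and the midpoint came from these same libraries. They are therefore not compared with the sham shares. Sham libraries, which set neither mean but entered the estimate of spread, had 29.3% to 72.4% at ZT15 and 74.1% to 96.0% at ZT3. The lowest was ZT15_SED_5, a library high in Cd79a. Leaving out ZT15_RUN_2 gave 1004 calls, and leaving out ZT15_RUN_4, ZT15_RUN_5, ZT15_RUN_6 or ZT15_RUN_1 gave 330, 338, 365 or 405.

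Promoter elements were counted in the RefSeq windows of 12288 genes, on both strands. The D-box (TTATGTAA or TTACGTAA) was in 0.936% of all these genes, in 16 of 314 genes that were higher at ZT15 (5.1%) and in 0 of 208 that were lower. The interferon response element was in 3.82% of all genes, in 3.82% of the higher and in 37 of 208 lower genes (17.8%). E-boxes (CACGTG) were in 11.0% of all, 13.1% of the higher and 6.73% of the lower genes. The element of Rev-erb and Ror (AGGTCA or GGGTCA, preceded by A, 2 bases of any kind and T) was in 1.48%, 1.59% and 0.962%. Of the repressor genes 4 of 6 with a window held an E-box: Cry1, which was called, and Per1, Ciart and Bhlhe41, which were not. The windows of Cry2 and Per3, both called, held none. Among interferon genes 8 of 16 held the response element, including Isg15 and Ifit1 shown above. A match is a description of letters in the window and does not show binding.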

How the data were processed

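RNA of inguinal white fat was sequenced as paired ends from total RNA depleted of ribosomal RNA with a stranded kit, per the labels. Per the submitters' processing notes, the tools included limma 3.48.3, featureCounts, Subread 1.6.2 and STAR. No build, annotation or strand setting is stated there, so genes that overlap, lie antisense or have near-identical copies may share reads. The deposited table holds normalized signal for 16233 genes in 24 libraries. The values are not raw counts: 100% of the deposited values were whole reads (counts) times 1 step per library within a tolerance of 0.01 reads, and the scaling equalled edgeR's TMM factors to within 6.7e-16. No column was left unused. Among 60 pairs of libraries within groups chi-square per degree of freedom was at least 22.8, so none was a duplicate within sampling noise.

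Log2(signal + 1), which understates changes of low genes, was tested with limma 3.58.1 in R 4.3.3 (group-means model over 24 libraries, eBayes with trend, Benjamini-Hochberg over all genes), checked on simulated data. edgeR 4.0.16 and DESeq2 1.42.0 on the recovered reads were alternatives. The members, the 43 gene lists and the tests were chosen with earlier results of these data known. Named genes were the 12 largest changes each way among called genes of above-median signal without a numbered or clone name. Up to 4 called members of each list (or the 2 most abundant) and core clock genes were named as well. The 5 smallest p-values of the treatment difference were added under the same filter of signal and name. Adipoq, Cd79a, Mx1 and Rsad2 were named after their values were seen. A few genes are not reported here and were taken out of the lists. Replicate numbers follow record order and pair nothing. Title numbers 1 to 24 fall in runs of 8 with 2 libraries of each group. Deviations from group means had a mean correlation of 0.088 (lowest -0.624) between libraries of different groups in the same run. Between libraries of different groups in different runs it was -0.038 (lowest -0.691). Whether these correlations differ was not tested. Identifiers were matched to GENCODE M21 names (all 16233), and 12288 genes had a RefSeq promoter.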

Additional observations from a re-analysis of the deposited data

Results flagged for a closer look

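Over the named genes, 206 groups of 6 exercised libraries were examined for a library far from the others of its group by Dixon's ratio at its critical value, and 17 values passed (8.25%), where chance gives about 1 in 20. ZT3_RUN_4, the library high in lymphocyte markers, held 10 of them. It was high in Cr2, a B cell receptor (218 units), Ifi203 (211), Rbm3 (115) and Rplp0 (532). It was low in Alas2 (9.58), Car3 (6691), Ebf2 (25.4), Fth1 (614), Pmp22 (79.8) and Rora (73.9). ZT3_RUN_5 was high in Pdk4 (716) and Noct (112), 2 genes that rose at ZT15. ZT3_RUN_6 was high in Acot2 (18.0) and low in Lrrc32 (11.5), ZT3_RUN_3 was high in Krt19 (9.35), and ZT3_RUN_1 was low in Tsc22d3 (127). In ZT15 RUN, ZT15_RUN_3 was low in Dbp (8.48).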

How the results depend on the processing

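Calls between ZT15 RUN and ZT3 RUN numbered 680 (61.0% higher). They were 426 after quantile normalization, 109 with the 12 exercised libraries alone, 221 with these less the one high in Cd79a and 196 without libraries high in muscle markers (both added after seeing the data), 1062 with lymphocyte and muscle scores as covariates, 1575 by DESeq2 and 1287 at an adjusted p under 0.1. Centring on the median gave 715, of which 75.9% were higher, against 81.7% with the exercised libraries alone, 79.6% without libraries high in muscle markers and 48.2% by DESeq2. The 191 calls of sham mice became 287 with a replicate block of title numbers, 559 with the covariates, 47 without libraries high in muscle markers, 713 with array weights, 544 by DESeq2 and 387 at 0.1. The shared 16.6% of exercised calls became 57.8% with 12 libraries per fit, 31.1% with the covariates, 40.3% with array weights and 26.6% without the libraries high in Cd79a. The 0 calls for the difference between treatments became 239 by DESeq2, 28 higher and 211 lower. The cause of these shifts was not tested. With the replicate block the exercised calls were 762, and 58 of 60 named calls stayed. Leaving out single libraries gave 330 to 1004 exercised calls, 130 to 388 sham calls, a share of 12.5% to 38.2%, and 0 calls for the difference. Of 60 named calls, 11 held in all 39 settings and none changed sign. Settings that only drop sham libraries could not change a sign. The table gives no hour after the bout, and depth (18.5 to 34.7 M reads) limits low genes such as Npas2 and Dkk3.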
